A study of Fragaria vesca with 12 samples.

Results

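The m6A landscape of Fvalkbh10b mutant fruit was described from the authors' list of m6A peaks for that genotype. All 24868 peaks of the list were taken. They lie in 14758 genes and stand beside 23966 peaks in 14032 genes in the list of wild-type (WT) fruit. The material was fruit of the diploid strawberry Fragaria vesca at 27 days post anthesis. The mutant samples carry the Fvalkbh10b genotype and the controls are WT. The kind of mutant allele is not stated in the labels or files. The study has 12 libraries in 4 groups of 3 replicates, and the mutant peaks rest on 6 of them, 3 immunoprecipitated with an antibody against m6A (IP) and 3 of input RNA. Each input library has a level for every gene in FPKM, a fragment count scaled to exon length and to the mapped fragments of the library. The IP libraries enter as 1 pooled list per genotype, so an enrichment, which is the authors' log2 ratio of IP over input, has no spread between replicates, and differences in enrichment between classes, genes or lists were described and not tested.

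N6-methyladenosine (m6A) is a methyl mark on adenosines inside mRNA. It is set by a methyltransferase complex, bound by proteins with a YTH domain and removed by dioxygenases of the AlkB family, of which ALKBH10B of Arabidopsis is one. In many plants the mark is densest near the stop codon and in the 3′ untranslated region (UTR), and it is known to bear on the stability and translation of mRNA.

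The gene annotated with RNA N6-methyladenosine dioxygenase activity, described as an uncharacterized protein, is FvH4_2g24110 (chromosome 2, 19702086 to 19706888, plus strand). Its input RNA stood at 3.75, 3.84 and 5.34 FPKM in the mutant libraries. The WT libraries stood at 30.27, 28.53 and 31.03 FPKM, so the genotypes did not overlap (log2 change -2.55 ± 0.11, SE, n = 3 per genotype, limma adjusted p = 3.01e-08). The labels do not say whether it is the mutated gene. The remaining mRNA still carried peaks in the mutant list: one in the 3′ UTR with a log2 enrichment of 2.73, against 2.83 for the WT peak that overlaps it, and one among the exonic peaks with 1.08 that overlaps no WT peak.

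The 3 mutant input libraries were close to each other, with Pearson correlations of log2(FPKM + 1) of 0.991 to 0.992 across genes. Summed FPKM lay between 500726 and 522590 in the mutant and between 467174 and 469664 in WT. A metallothionein-like gene alone held 20.4% to 23.3% of the mutant sums and 12% to 12.3% of the WT sums. FPKM do not give read numbers, so the depth is unknown. The labelled tissue is fruit, and the summed level of genes for pectin and cell wall degradation was 3680 to 3860 FPKM in the mutant and 16700 to 17100 FPKM in WT. Achene and seed storage genes summed to 470 to 503 FPKM in the mutant and 707 to 722 FPKM in WT, and genes of lignified vascular tissue to 445 to 454 and 489 to 520 FPKM. By limma 15 of 27 tested vascular genes were higher and 8 lower, although their sum was lower in the mutant. Of 22 tested achene genes 6 were higher and 13 lower. Over all tested genes 48.3% were higher and 19.1% lower. With libraries rescaled to the same median, vascular genes had 15 and 10 and achene genes 4 and 14. Over all tested genes these shares were then 30.8% and 32.2%. In the mutant 2 of 35 achene, 5 of 57 vascular and 27 of 175 cell wall genes were listed at 0 in every library; the part of tissue makeup in the results was not tested. In bulk RNA, fewer cells of a type and less RNA per cell cannot be told apart.

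Most m6A peaks of mutant fruit lay in 3′ UTRs, and the enrichment was highest there, much as in the WT list. The authors' annotation put 13597 peaks (54.7%) in the 3′ UTR, 7481 (30.1%) in the class exonic, taken here as exons outside the UTRs, and 3790 (15.2%) in the 5′ UTR. The 3′ UTR peaks were in 11178 genes, the exonic peaks in 5813 and the 5′ UTR peaks in 3555. The median log2 enrichment was 3.06 for 3′ UTR peaks (quartiles 2.51 and 3.66), which is 8.34-fold over input. It was 1.5 for exonic peaks (1.15 and 2.07) and 1.43 for 5′ UTR peaks (1.2 and 1.87), or 2.83-fold and 2.69-fold. Of the 3′ UTR peaks 52.7% reached a log2 enrichment of 3, against 7.45% of the exonic and 4.51% of the 5′ UTR peaks. Peaks under 2-fold enrichment made up 12.1% of the exonic, 7.92% of the 5′ UTR and 0.758% of the 3′ UTR peaks. In the WT list 54.5% of peaks were in the 3′ UTR, 29.9% exonic and 15.6% in the 5′ UTR. Their median log2 enrichments were 3.01, 1.32 and 1.28. The WT list held more weak peaks, with 24.3% of the exonic, 18.1% of the 5′ UTR and 1.34% of the 3′ UTR peaks under 2-fold.

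The class of a peak went with its enrichment. Among the 5147 peaks with a log2 enrichment of 1 to 1.5, 54.8% were exonic, 34.2% in the 5′ UTR and 11% in the 3′ UTR. Among the 5727 peaks between 3 and 4, 90.9% were in the 3′ UTR. The 279 peaks at 5 or above broke this order, with 71.7% in the 3′ UTR and 23.3% exonic. Of these 279 peaks, 109 (39.1%) lay in genes with a mean mutant input under 1 FPKM, against 7.16% of all peaks, and 72 in genes of at least 5 FPKM. The ratio is divided by input, so a low input can give a high value, and the part of this in the highest values was not tested.

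**Figure D1:**
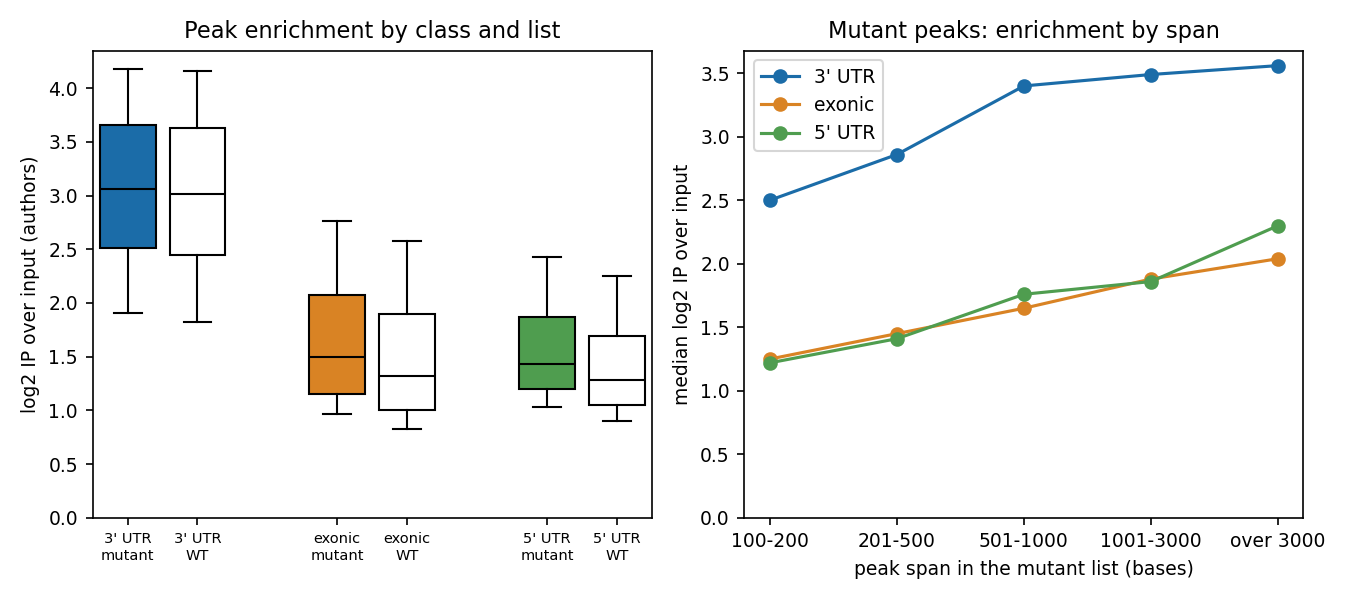
Left, log2 ratio of IP over input (authors' values) of the peaks of each class in the mutant list (filled) and the WT list (white); lines are medians, boxes quartiles, whiskers the 10th and 90th percentiles. Right, median log2 ratio of mutant peaks by class and by span in bases; 3′ UTR peaks lie above the other classes at every span, from 2.5 for spans of 100 to 200 bases to 3.56 over 3000 bases.

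Among genes of at least 5 FPKM the strongest 3′ UTR peak was in a proline-rich protein HaeIII subfamily 1-like gene (FvH4_7g13500, chromosome 7, plus strand). In the files' coordinates, whose build is not named, the peak spans 300 bases, from 12109027 to 12109326, with a log2 enrichment of 7.54, against 3.24 for the overlapping WT peak. In the authors' deposited table, which gives p to 2 decimals so that small ones read 0, the change there was 4.2 with an adjusted p of 0.01. A second peak of the same 3′ UTR had 2.45 in the mutant and 2.27 in WT. The input RNA of this gene was 260.74, 270.24 and 273.73 FPKM in the mutant and 214.42, 231.42 and 232.7 FPKM in WT. The mutant libraries were all above the WT ones (log2 change 0.25 ± 0.04, limma adjusted p = 5.77e-04), a change equal to the median of all genes tested. With all libraries rescaled to the same median it became -0.04 (adjusted p = 0.461).

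Of the other 5 genes with the strongest 3′ UTR peaks, 3 had a higher value in the mutant list and 2 in the WT list. All genes named for their strongest peaks were chosen by the mutant value, which favours mutant values above those of WT. The count therefore says nothing on direction. The gene of 7-dehydrocholesterol reductase (FvH4_6g37020), an enzyme of sterol synthesis, had a peak of 125 bases with 5.63 in the mutant and 3.43 in WT on the same interval, and a peak of 1456 bases with 4.37 and 4.16. The gene of 60S ribosomal protein L13-2-like (FvH4_7g33460), a part of the large ribosomal subunit, had 1 peak of 813 bases with 5.74 in the mutant and 5.51 in WT. Input RNA stood at 85.38, 91.19 and 95.96 FPKM in the mutant and 90.6, 91.6 and 86.77 in WT, and these overlap (limma adjusted p = 0.774). On rescaled libraries it was lower in the mutant (log2 change -0.26, adjusted p = 0.00113). Tubulin-folding cofactor A (FvH4_7g08250), which helps to fold tubulin, had a peak of 2700 bases with 5.7 in the mutant and 5.38 in WT. Levels in input were 46.25, 46.4 and 48.66 FPKM in the mutant, above 31.6, 33.13 and 29.58 FPKM in WT (log2 change 0.57 ± 0.06, limma adjusted p = 1.24e-05). A gene of a pentatricopeptide repeat protein (FvH4_3g43110) had 5.79 in the mutant and 7.06 in WT, and the authors' deposited table lists a change of -1.63 with an adjusted p of 0. A gene for probable protein S-acyltransferase 23 (FvH4_2g10900), of a family that attaches fatty acids to proteins, had 6.25 in the mutant and 7.67 in WT.

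Some exonic and 5′ UTR peaks lay above the 3′ UTR median log2 enrichment of 3.06. Among genes of at least 5 FPKM the strongest exonic peak was in a keratin, type II cytoskeletal 1-like gene (FvH4_4g13400). It spans 1200 bases inside the gene, from 17026316 to 17027515, with 4.57 in the mutant and 4.29 in WT. The other exonic peaks named here cover the whole gene or overlap a WT peak of the 3′ UTR class, so their place outside the 3′ UTR is uncertain. The protein TPX2 gene (FvH4_5g28561), named for a factor of spindle assembly, had 1 exonic peak over its whole annotated span of 1630 bases, with a log2 enrichment of 4.53 against 2.52 in WT. The authors' deposited table lists a change of 2.02 with an adjusted p of 0 at this peak. Input RNA of TPX2 stood at 8.73, 7.22 and 11.32 FPKM in the mutant and 10.42, 11.07 and 7.5 in WT, which overlap (limma adjusted p = 0.676). A gene described as RNA-binding protein cabeza (FvH4_6g05480) had an exonic peak with 4.08 in the mutant, and the WT peak overlapping it, with 3.65, is of the 3′ UTR class. Its input RNA rose from 4.04, 3.84 and 3.93 FPKM in WT to 20.94, 20.31 and 20.73 in the mutant (log2 change 2.13 ± 0.08, limma adjusted p = 6.12e-09). A calponin homology domain gene (FvH4_6g04961) moved the other way in input, from 73.43, 72.54 and 77.25 FPKM in WT to 11.26, 12.03 and 10 in the mutant (log2 change -2.64 ± 0.07, limma adjusted p = 6.91e-10). Its exonic peak of 1860 bases covered the whole annotated gene and stood at 3.89 in the mutant and 3.56 in WT.

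In the 5′ UTR the strongest peaks included those of 2 genes of RNA synthesis and cutting. A putative transcription elongation factor SPT5 homolog 1 gene (FvH4_2g14770) had a 5′ UTR peak of 625 bases with 5.14, a 3′ UTR peak with 4.76 and a weaker exonic peak with 1.95. The WT values at these were 4.59, 4.43 and 1.68, and the authors' deposited table lists changes of 0.58, 0.29 and 0.34 with adjusted p of 0, 0 and 0.01. The gene of Dicer homolog 1 (FvH4_7g17920), which cuts miRNA precursors, had 5′ UTR peaks with 4.4 and 1.84 and a 3′ UTR peak with 3.01. Dicer input RNA stood at 13.61, 11.92 and 12.46 FPKM in the mutant and 13.77, 13.56 and 12.82 in WT; the difference did not pass (limma adjusted p = 0.405), and passed on rescaled libraries as lower in the mutant (log2 change -0.34, adjusted p = 0.00387). A leucine-rich repeat receptor-like kinase gene (FvH4_3g17840) had 5 mutant peaks, and its strongest, a 5′ UTR peak with 4.65, overlaps no WT peak. This gene stood at 13.02, 13.04 and 13.4 FPKM in the mutant against 1.08, 0.91 and 1.13 in WT (log2 change 2.8 ± 0.10, limma adjusted p = 7.53e-09). The WT list has 2 peaks in it, and the part of the level in the number of peaks was not tested.

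Along the gene, 3′ UTR peaks were concentrated at the annotated 3′ end. Of the 13497 such peaks inside the gene bounds of the expression table, 31.6% ended exactly at the last base of the gene and 51.9% ended within 100 bases of it. The median distance was 91 bases. The 5′ UTR peaks kept more distance from the annotated start: 11.6% began at the first base, 48.5% within 100 bases, and the median distance was 112 bases. Exonic peaks were spread along the gene, with the median centre at 50.8% of the gene span and quartiles at 29.6% and 74.1%. Exonic peaks centred between 75% and 100% of the gene had a median log2 enrichment of 1.75, against 1.35 below 25% and 1.44 in between. Of all exonic peaks inside the gene bounds, 12.1% ended at the last base of the annotated gene. Of the 1743 centred between 75% and 100% of the gene, 510 ended there, and their part in the higher median was not tested. Positions are in percent of the genomic span with introns, and 80 peaks (0.325%) reached past the gene bounds and were left out of them.

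**Figure D2:**
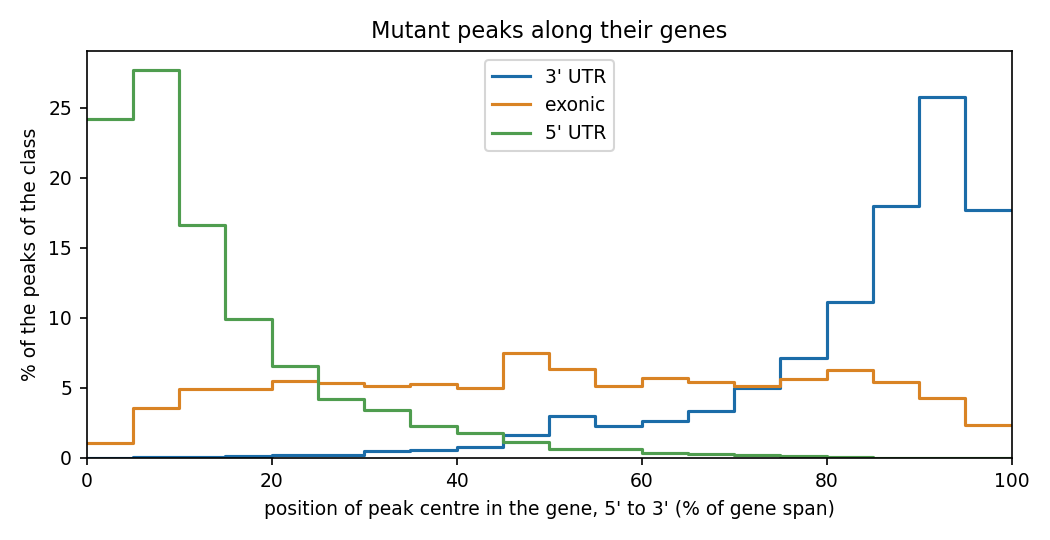
Share of the peaks of each class (y, percent) by the position of the peak centre in the gene from 5′ to 3′ (x, percent of the gene span with introns, in steps of 5). 3′ UTR peaks pile up past 80% and 5′ UTR peaks below 20%, while exonic peaks are spread over the gene.

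A single peak was the most common state of a gene with m6A, and further peaks were mostly weaker ones outside the 3′ UTR. Of the 14758 genes, 8019 (54.3%) had 1 peak, 4420 had 2, 1601 had 3 and 718 (4.87%) had 4 or more. The mean was 1.69 peaks per gene, against 1.71 in the WT list. Of the peaks in genes with 1 peak 65.8% were in the 3′ UTR, and of those in genes with 7 or more 27.3% were, with 56.1% exonic. The median log2 enrichment over all peaks was 2.86 at 1 peak and 1.68 at 7 or more. The median of each gene's highest peak was 2.86 and 3.54. Genes with more peaks were longer, with a median span of 3066 bases at 1 peak and 10508 bases at 7 or more. Their median mutant input differed little, at 8.24 and 8.02 FPKM.

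The same order of classes held inside single genes. Peaks of a gene share its FPKM, but input at each peak is not listed, and its part was not tested. Of 2755 genes with both 3′ UTR and exonic peaks, the strongest 3′ UTR peak exceeded the strongest exonic peak in 2565 (93.1%), by a median of 1.71 log2 units. Of 2793 genes with 3′ UTR and 5′ UTR peaks it was higher in 2590 (92.7%), by a median of 1.67. Exonic and 5′ UTR peaks showed no such order, with the exonic one higher in 466 of 1008 genes (46.2%). By class, 6398 genes (43.4%) had peaks only in the 3′ UTR, 2818 (19.1%) only exonic ones and 522 (3.54%) only in the 5′ UTR. A further 768 genes (5.2%) had all 3. Neighbouring peaks of a gene were a median of 527.5 bases apart, and 2441 of the 10110 pairs were within 100 bases of each other. Of the 11178 genes with a 3′ UTR peak 18.7% had 2 or more there.

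The genes with the most peaks were long. A clustered mitochondria protein homolog gene (FvH4_3g24640), with 13 mutant peaks over 15035 bases, had its highest in the 3′ UTR, at 3.04, and its lowest among the exonic ones, at 0.77. Input RNA was 5.08, 5.24 and 4.82 FPKM in the mutant and 2.85, 3.09 and 2.44 in WT (log2 change 0.68 ± 0.11, limma adjusted p = 5.2e-04). A gene described as titin (FvH4_6g51240), a name taken from an animal muscle protein, also had 13 peaks, of which 12 were exonic, with log2 enrichments between 1.22 and 3.69. The WT list has 2 peaks in it. Levels in input were 3.06, 2.43 and 3.15 FPKM in the mutant and 0.36, 0.1 and 0.33 in WT (log2 change 1.62 ± 0.15, limma adjusted p = 8.18e-06). The part of this level difference in the number of peaks was not tested.

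Peak spans ran from 100 to 20546 bases, with a median of 450, and wider peaks were more enriched. The shortest span was shared by 1533 peaks (6.16%), and 58.2% of spans are multiples of 25 bases. The median span was 525 bases in the 3′ UTR, 400 in the 5′ UTR and 375 among exonic peaks. In the 3′ UTR the median log2 enrichment was 2.5 for spans of 100 to 200 bases and 3.4 for spans over 500 and up to 1000 bases. For exonic peaks it went from 1.25 to 1.65 and for 5′ UTR peaks from 1.22 to 1.76. Spans run from start to end of a peak and include introns, and 449 peaks (1.81%) span over 3000 bases. The longest lies in the 3′ UTR class of a gene described as a serine hydroxymethyltransferase (FvH4_1g19090), an enzyme of glycine and serine metabolism, with a log2 enrichment of 4.49 in the mutant and 4.32 in WT. A peak of 10559 bases in the gene of probable alpha-mannosidase I MNS4 (FvH4_4g01870), which trims sugars from glycoproteins, stood at 4.4 and 4.54.

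Most expressed genes of mutant fruit carried m6A, and the share was lower at both ends of the expression range. Of 15741 genes with a mean mutant input of at least 1 FPKM, 13197 (83.8%) had a peak, against 1323 of 6186 genes (21.4%) under 1 FPKM. The share was 72.7% between 1 and 2 FPKM (95% Wilson interval over genes 70.5 to 74.7) and 88.7% between 20 and 50 FPKM (87.5 to 89.9). It was 80.2% between 100 and 500 FPKM (76.9 to 83.2) and 62% in the 50 genes over 500 FPKM (48.2 to 74.1). The 3′ UTR class followed this course, from 45.3% of genes at 1 to 2 FPKM to 75.1% at 20 to 50 and 54% over 500. Exonic peaks were most frequent at 1 to 2 FPKM, in 41.1% of genes, and were present in 8% over 500 FPKM. Of the 846 genes listed at 0 FPKM in all mutant libraries 45 had a peak. A further 238 genes with peaks are not in the expression table.

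Enrichment varied with level differently by class. The median of each gene's highest 3′ UTR peak was 3.05 at 1 to 2 FPKM, 3.31 at 20 to 50 FPKM and 2.18 over 500 FPKM. For exonic peaks it was 1.76 at 1 to 2 FPKM, 1.48 at 20 to 50 and 1.52 over 500 FPKM, and for 5′ UTR peaks 1.81, 1.37 and 1.25. The last bin holds 27 genes with 3′ UTR peaks, but only 4 with exonic and 4 with 5′ UTR peaks. As a description across 13197 genes, which share libraries and peak list, Spearman's rho between FPKM and the highest enrichment of a gene was 0.0839. It was 0.0378 for 3′ UTR, -0.0749 for exonic and -0.19 for 5′ UTR peaks.

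**Figure D3:**
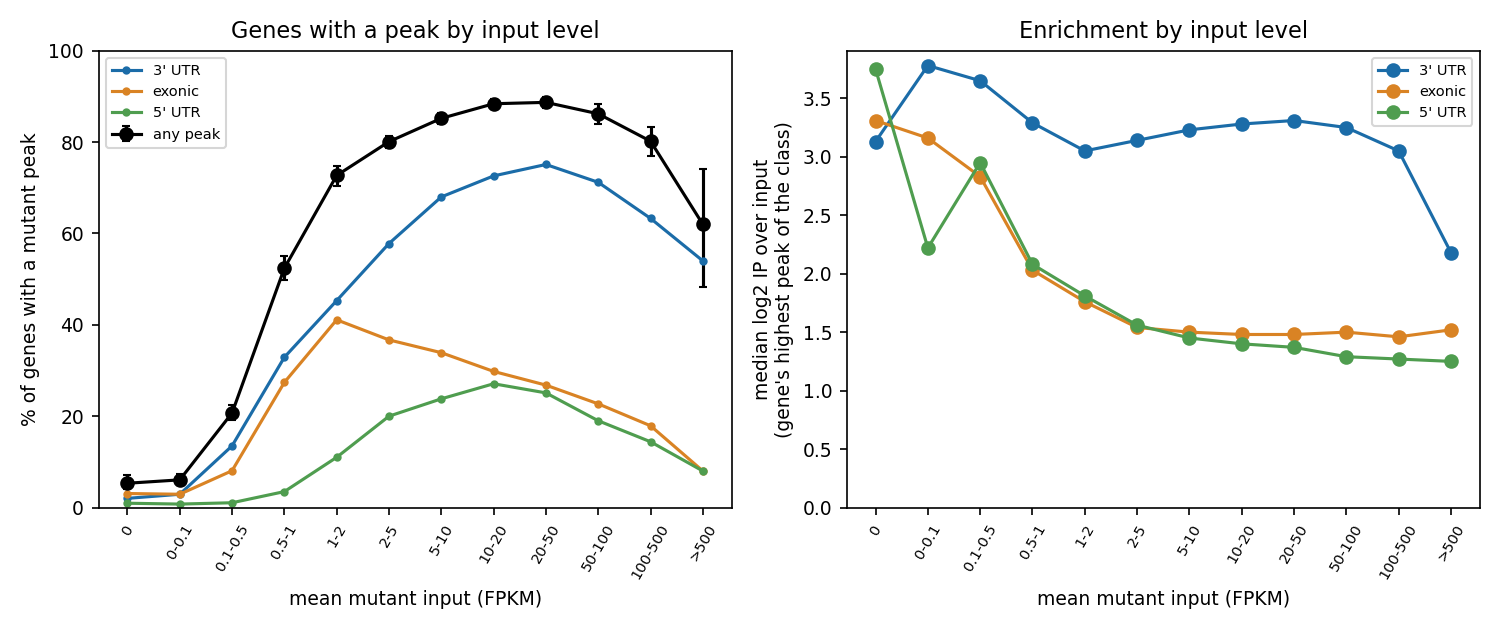
Left, percent of genes with any mutant peak (black, bars are 95% Wilson intervals) and with a peak of each class, by mean FPKM of the 3 mutant inputs (x, bins). Right, median log2 ratio of IP over input of the genes' highest peak per class in the same bins; bins under 0.5 FPKM and over 500 FPKM hold few genes with exonic or 5′ UTR peaks, at 0 FPKM 26 and 8.

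Among genes of at least 1 FPKM, gene span went with the presence of a peak more closely than level did. Of the 1099 such genes that span up to 1000 bases 41.9% had a peak, as had 66.5% of those of 1000 to 2000 bases. The share was 83.1% up to 3000, 91.7% up to 5000 and 97% in the longer ones. Within the shortest genes the share was 38.2% at 1 to 5 FPKM and 46.8% at 100 FPKM or more. Between 20 and 100 FPKM and at 100 FPKM or more it was 45.1% and 46.8% in these genes, 72.3% and 70.4% at 1000 to 2000 bases and 87.7% and 87.4% up to 3000. The lower share at high level was larger in longer genes, with 93.8% and 86.5% up to 5000 bases and 97.2% and 93.2% above. A 3′ UTR peak was present in 7.28% of the shortest and 90.6% of the longest genes. Spearman's rho across 15741 genes between span and number of peaks was 0.471, against 0.0337 between FPKM and number of peaks. The genes over 500 FPKM had a median span of 2055 bases, and those of 20 to 50 FPKM 3690.5 bases. A gene's length, its annotated UTRs and the number of windows in which a peak could be called move together here, and their part was not tested.

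Much of the RNA of mutant fruit came from genes without a listed peak. These held 37.5% of the summed mean FPKM, and 20.1% when the most abundant gene was left out. That gene, the metallothionein-like FvH4_3g20030 of a family of small metal-binding proteins, stood at 102370, 109174 and 121590 FPKM in the mutant. In WT it stood at 56889, 56286 and 57559 FPKM, below all mutant libraries (log2 change 0.96 ± 0.06, limma adjusted p = 4.63e-07). It has no peak in either list and spans 840 bases. Lipid transfer protein EARLI 1 (FvH4_5g18321), of a family of small extracellular proteins, went the other way, with 6003, 6362 and 5897 FPKM in the mutant against 17683, 15601 and 15473 in WT (log2 change -1.41 ± 0.06, limma adjusted p = 1.17e-08). It had no mutant peak, and a WT exonic peak with a log2 enrichment of 0.29. With quantile normalization both genes differ by 0 on the log2 scale, since it gives the highest ranks of each library the same value.

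Some other abundant genes without a mutant peak stood far higher in the mutant than in WT. The abundant genes named here were chosen by their mutant level, which favours genes higher in the mutant. Peroxidase 42 (FvH4_3g02090), a cell wall oxidant enzyme, stood at 1297, 1329 and 1323 FPKM in the mutant and at 21.06, 20.27 and 18.87 in WT (log2 change 5.97 ± 0.04, limma adjusted p = 2.58e-13). The auxin-repressed 12.5 kDa protein gene (FvH4_3g08830) stood at 1237, 1319 and 1380 FPKM in the mutant and 39.36, 41.54 and 38.86 in WT (log2 change 5 ± 0.05, limma adjusted p = 8e-13). It carried a 5′ UTR peak with 0.89 in the WT list. A Bet v I type allergen gene (FvH4_4g18990), of a family that binds small ligands, went from 49.87, 41.74 and 42 FPKM in WT to 1273, 1291 and 1257 in the mutant (log2 change 4.81 ± 0.06, limma adjusted p = 5.24e-12). Cytosolic glyceraldehyde-3-phosphate dehydrogenase GAPC2 (FvH4_4g24420), an enzyme of glycolysis, had no peak at 2138, 2179 and 2069 FPKM, with WT at 2041, 1920 and 1879. It passed as slightly higher (log2 change 0.13 ± 0.04, limma adjusted p = 0.0154), and as lower on rescaled libraries (-0.15, adjusted p = 0.0194). Leaving out either of mutant libraries 1 and 2 or WT libraries 2 and 3 ended the call (adjusted p = 0.0531, 0.0639, 0.0624 and 0.0698), as did testing with no filter on low values (0.0657).

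Abundant mRNAs that did carry m6A had moderate 3′ UTR peaks. Translationally-controlled tumor protein homolog (FvH4_4g18300), a conserved growth protein, had 1998, 2072 and 1949 FPKM in the mutant against 600, 598 and 621 in WT (log2 change 1.72 ± 0.03, limma adjusted p = 1.04e-10). Its peak of 659 bases had a log2 enrichment of 1.61 in the mutant and 1.59 in WT, and a further peak of 100 bases with 2.67 is listed in the mutant. The fruit protein pKIWI501-like gene (FvH4_3g00920) rose from 416, 413 and 406 to 1576, 1585 and 1549 FPKM (log2 change 1.93 ± 0.03, limma adjusted p = 2.04e-11), with a 3′ UTR peak at 1.82 in the mutant and 1.56 in WT. Thioredoxin H-type (FvH4_2g39210), a redox protein, fell from 2620, 2683 and 2623 to 1200, 1212 and 1157 FPKM (log2 change -1.15 ± 0.03, limma adjusted p = 1.02e-09). Its 3′ UTR peak stood at 1.91 in the mutant; the overlapping WT peak, with 1.51, is of the 5′ UTR class, and the authors' deposited table lists a change of 0.45 with an adjusted p of 0.

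**Figure D4:**
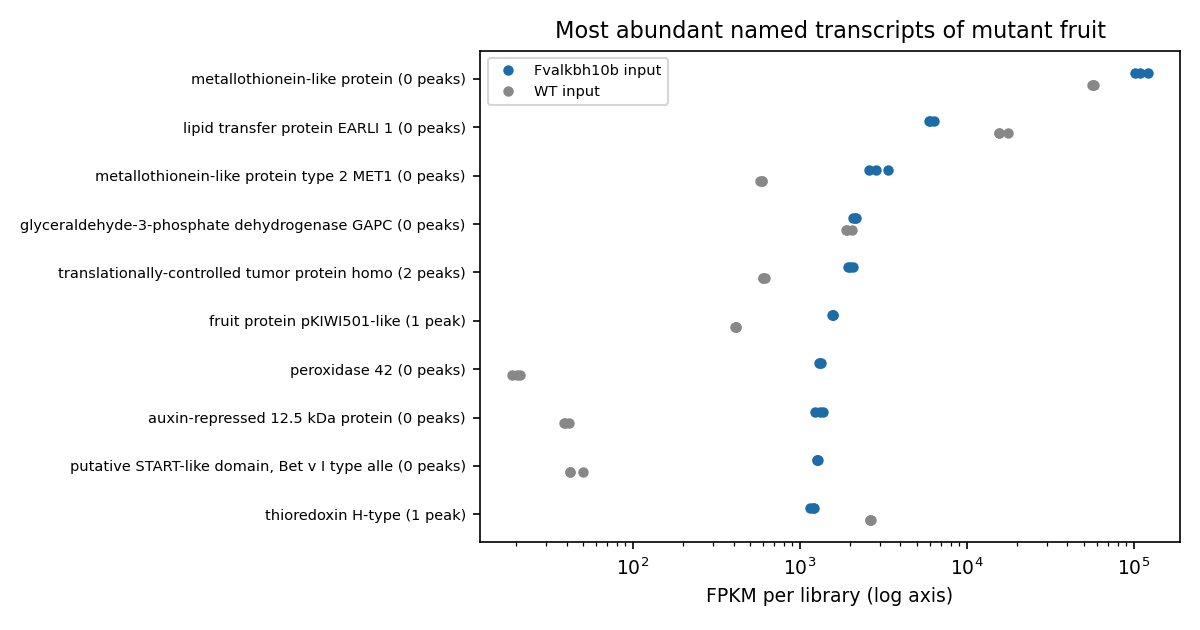
FPKM of the 10 most abundant named transcripts of mutant fruit in each of the 3 mutant (blue) and 3 WT (grey) input libraries on a log axis, with the number of mutant peaks after the name. The upper 4 genes, the metallothionein-like gene at 102370 to 121590 FPKM among them, have no peak.

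Genes of the m6A machinery list, which was drawn by words, carried peaks about as often as other expressed genes. Of 13 genes of the list with at least 1 FPKM, 12 had a mutant peak, 92.3% against 83.8% of all such genes, with a median of the highest log2 enrichment of 3.08 against 2.99. The methyltransferase gene MT-A70-like (FvH4_5g11050), the catalytic subunit, had 3 peaks: an exonic one of 1902 bases with 2.72, and 3′ UTR peaks with 3.09 and 1.83. WT stood at 2.33 for the exonic peak, and the authors' deposited table lists a change of 0.46 with an adjusted p of 0. Both 3′ UTR peaks overlap a WT peak with 2.23, and the change listed there was -0.39 with an adjusted p of 0.1. The level of the MT-A70-like gene in input was 11.12, 11.87 and 11.57 FPKM in the mutant and 10.86, 10.43 and 11.04 in WT (limma adjusted p = 0.312). The gene of Hakai (FvH4_6g12190), a ubiquitin ligase of the complex, had a short 3′ UTR peak with 1.69. Its input RNA of 17.7, 15.73 and 15.96 FPKM in the mutant lay above 14.14, 13.09 and 13.08 in WT (limma adjusted p = 0.00874), which did not hold after rescaling (adjusted p = 0.938).

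Among the readers, YTH domain-containing protein 1 (FvH4_5g01140) had the strongest peak of the list, in the 3′ UTR, with 5.29 in the mutant and 5.32 in WT at an input of 5.75, 5.42 and 7.06 FPKM in the mutant. A reader gene described as YTH domain-containing family protein 2-like, FvH4_3g45840, was the expressed member without a peak in either list. It was also the most abundant, at 122.44, 118.84 and 112.76 FPKM in the mutant against 59.89, 61.4 and 58.33 in WT (log2 change 0.97 ± 0.05, limma adjusted p = 4.93e-08). The RNA demethylase ALKBH5 gene (FvH4_1g11920) had a 3′ UTR peak with 2.86 against 3.03 in WT and an exonic peak with 1.26 against 1.05. ALKBH5 input RNA stood at 23.22, 19.16 and 23.26 FPKM in the mutant and 19.27, 17.18 and 19.07 in WT, which overlap (log2 change 0.23 ± 0.09, limma adjusted p = 0.0418, and -0.04 on rescaled libraries). The call was lost without mutant library 1 or 3 (adjusted p = 0.134 and 0.129), without WT library 1, 2 or 3 (0.0504, 0.139 and 0.0613), and with no filter on low values (0.0653). Of the 13 tested members 7 were higher in mutant input and 0 lower in limma (0 lower at an unadjusted p under 0.05), where 48.3% of all 15571 genes tested were called higher and 19.1% lower. On rescaled libraries 4 were higher and 1 lower, and with quantile normalization 2 and 2. These counts depend on membership, since the list was drawn by words in the gene descriptions. It holds AlkB homologs 2, 6 and 8, whose descriptions name no m6A role, and those of homolog 8 read alkylated DNA repair protein. The list leaves out FvH4_2g24110, the gene annotated with RNA N6-methyladenosine dioxygenase activity, which was lower in the mutant (log2 change -2.55, limma adjusted p = 3.01e-08).

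Shares of expressed members with a peak are given for gene groups of ripening beside the 83.8% of all expressed genes, with no test between groups. Of 77 expressed genes for pectin and cell wall degradation 52 (67.5%) had one, as had 25 of 36 for flavonoid and anthocyanin synthesis (69.4%), 20 of 28 for aroma and esters (71.4%), and 39 of 57 auxin genes (68.4%). In input RNA 32 of 80 tested cell wall genes were higher and 43 lower in the mutant by limma (28 and 44 on rescaled libraries). Over all genes tested 48.3% were higher and 19.1% lower, and on rescaled libraries 30.8% and 32.2%. Photosynthesis genes had the lowest share of the 18 groups, 25 of 41 (61%), with a median span of 1537 bases against 3346 for all expressed genes. Beside the same shares over all genes, 39 of 40 tested photosynthesis genes rose and 1 fell in input (37 and 1 on rescaled libraries). Sugar metabolism and transport stood at 52 of 62 (83.9%) and the group of abscisic acid genes, protein phosphatases 2C and SnRK kinases at 63 of 70 (90%). The highest enrichment of a gene had a median of 3.42 in the sugar group and 1.66 in the flavonoid group, with 2.99 over all genes. Median gene spans of these 2 groups were 3920 and 1787.5 bases. The cell wall group had a median span of 3460 bases and a median highest enrichment of 2.36. The part of span in these group values was not tested.

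Members of these groups chosen for high mutant input and no mutant peak included probable pectate lyase 5 (FvH4_4g25110), a pectin-cleaving enzyme. It stood at 513.36, 527.57 and 546.18 FPKM in the mutant against 2.38, 1.43 and 2.24 in WT (log2 change 7.47 ± 0.11, limma adjusted p = 1.2e-11). Sucrose synthase (FvH4_1g09360), which splits sucrose, had no peak in either list at 115.26, 105.83 and 104.83 FPKM, above 14.36, 13.01 and 13.31 in WT (log2 change 2.91 ± 0.06, limma adjusted p = 1.13e-10). NAC domain-containing protein 18-like (FvH4_3g20700), a transcription factor gene, had none at 434.59, 424.7 and 433.56 FPKM, below 771.03, 730.13 and 725.97 in WT (log2 change -0.78 ± 0.04, limma adjusted p = 3.15e-08). Among methylated members, auxin response factor 2 (FvH4_5g09310), a transcription factor of auxin response, had 4 peaks, 3 of them in the 3′ UTR with 4.72, 3.76 and 2.93. The overlapping WT peaks stood at 5.67 for the first and, as 1 peak, at 3.96 for the others, and the authors' deposited table lists a change of -0.43 with an adjusted p of 0 for the middle peak. ARF2 input RNA stood at 55.48, 52.64 and 52.96 FPKM in the mutant against 15.84, 16.7 and 15.81 in WT (log2 change 1.68 ± 0.05, limma adjusted p = 2.83e-09).

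Further members with strong peaks belonged to sugar, flavonoid and seed groups. Alkaline/neutral invertase A (FvH4_6g07880), which splits sucrose, had a 3′ UTR peak with 4.78 in the mutant and 6.57 in WT at an input of 8.26, 9.15 and 8.93 FPKM in the mutant and 11.26, 12.84 and 11.98 in WT (limma adjusted p = 0.00167). An anthocyanidin reductase-like gene (FvH4_5g04220), of proanthocyanidin synthesis, had a 3′ UTR peak with 3.63 against 3.4. Its input RNA fell from 19.34, 26.25 and 24.73 to 5.15, 4.62 and 5.09 FPKM (log2 change -2.03 ± 0.11, limma adjusted p = 1.66e-07). A vicilin-like seed storage gene (FvH4_1g13730) fell from 28.24, 29.58 and 26.29 to 3.16, 2.93 and 3.03 FPKM (log2 change -2.84 ± 0.08, limma adjusted p = 1.18e-09). Its 3′ UTR peak stood at 4.13 in the mutant and 3.59 in WT, and the authors' deposited table lists a change of 0.41 with an adjusted p of 0.

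For further groups the shares stand beside all expressed genes, of which 83.8% had a peak, with 55.3% of the peaks in the 3′ UTR and 28.6% exonic; differences between groups were not tested. Of 151 expressed cytosolic ribosomal protein genes 133 (88.1%) had a peak at a median span of 1986 bases, 87.5% of their 160 peaks were in the 3′ UTR, and the mean was 1.06 peaks per gene. Pentatricopeptide repeat proteins, which process organelle RNA, had a peak in 279 of 332 (84%), with 51.3% of 554 peaks exonic and 34.7% in the 3′ UTR, at a median input of 2.67 FPKM. Receptor-like kinases had one in 185 of 223 (83%), with 39.8% exonic. Heat shock proteins and chaperones had one in 119 of 138 (86.2%). Ubiquitin ligases and F-box proteins had one in 353 of 495 (71.3%). MADS-box and NAC factors stood at 32 of 40 (80%), MYB and bHLH factors at 64 of 84 (76.2%) and ethylene genes at 42 of 61 (68.9%). Of the markers of other fruit tissues, 14 of 19 achene and seed storage genes (73.7%) and 20 of 26 genes of lignified vascular tissue (76.9%) had a peak. Among the latter 68.8% of the peaks were exonic.

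**Figure D5:**
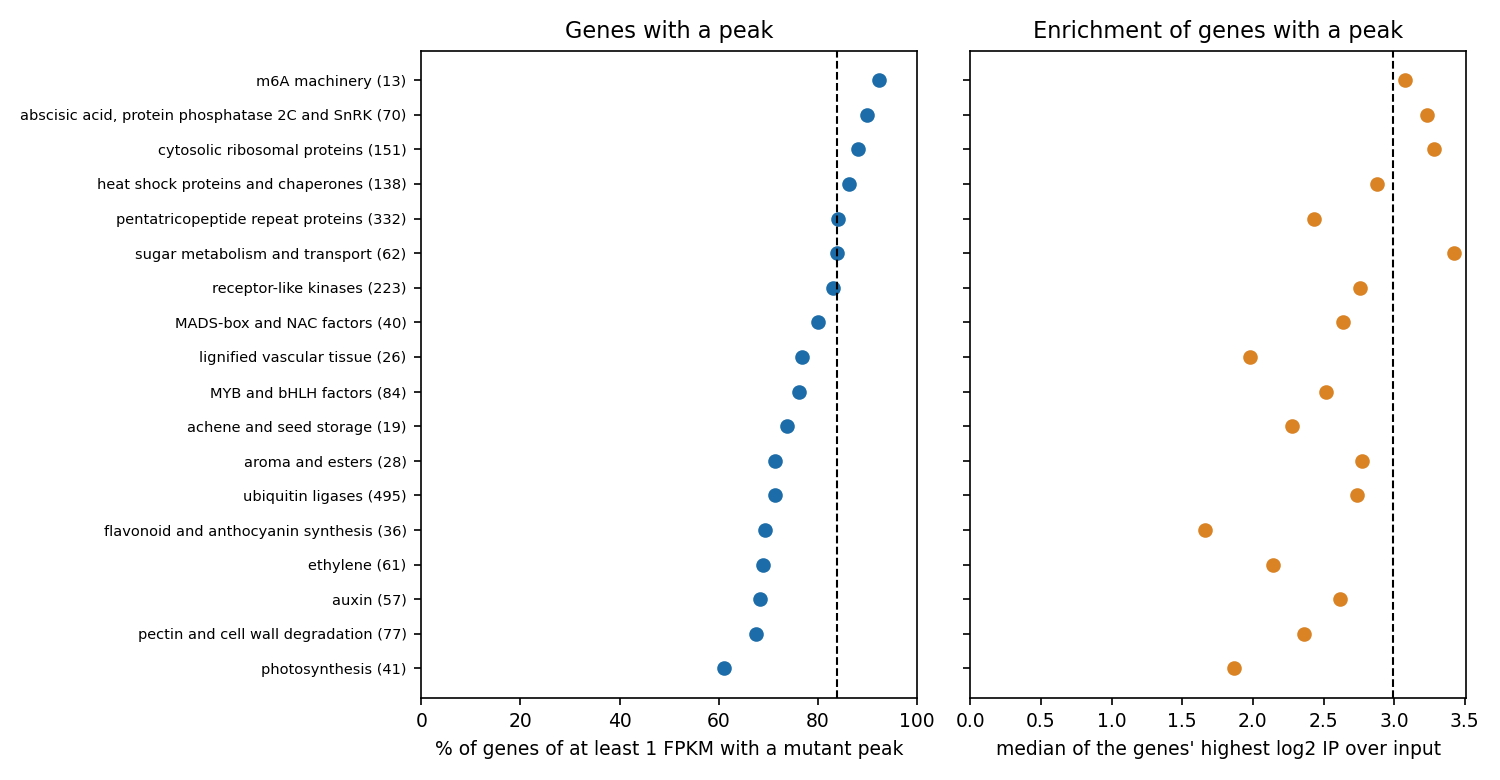
Left, percent of the genes of each group with at least 1 FPKM in mutant input that have a mutant peak; right, median over genes with a peak of the highest log2 ratio of IP over input. The number of expressed genes follows the group's name, and dashed lines give all expressed genes, 83.8% and 2.99.

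Chromosomes were alike. The share of expressed genes with a peak lay between 82.2% on chromosome 3 and 86.7% on chromosome 7, and the median log2 enrichment between 2.35 and 2.42. Only 16 peaks were on unplaced contigs, and 49.8% of peaks were on the plus strand.

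Beside the WT list, mutant peaks in the 3′ UTR were those most often found in both. Of the 3′ UTR peaks 88.3% overlapped a WT peak by at least 1 base on the same strand, of the 5′ UTR peaks 75.4% and of the exonic peaks 65%. The share was 48.9% of the peaks under 2-fold enrichment and 93.6% between a log2 enrichment of 4 and 5, but 72.8% at 5 or above. Mutant peaks without a WT overlap numbered 5137, of which 2619 were exonic. They had a median span of 225 bases and a median log2 enrichment of 1.52, against 525 bases and 2.6 for the others. On the 4181 intervals with the same start and end in both lists the median log2 enrichment was 2.95 in the mutant and 2.89 in WT. The median difference, mutant minus WT, was 0.04 in 3024 3′ UTR intervals, 0.1 in 832 exonic and 0.15 in 325 5′ UTR intervals, and the mutant value was higher in 57.9%, 69.6% and 76.9% of them.

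The authors' differential peaks had the same leaning by class. In the table deposited by the authors (the authors' deposited table), of 8889 intervals 4325 (48.7%) were higher and 1950 (21.9%) lower in the mutant at an adjusted p under 0.05. Of those called, 62.4% were higher in the 3′ UTR, 79% among exonic and 81% among 5′ UTR intervals. Set on the mutant list, 4166 mutant peaks (16.8%) overlapped a higher and 1682 (6.76%) a lower interval. By class, 18.1% of 3′ UTR peaks overlapped a higher and 10.1% a lower one, against 14.5% and 2.93% of exonic and 16.3% and 2.22% of 5′ UTR peaks. Sites with no peak in the mutant list are not in these counts. With a change of at least 2-fold as a further condition 2.65% of mutant peaks overlapped a higher interval.

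The presence of a peak in the mutant was set beside the input RNA change against WT. The mutant inputs of that change are also the inputs behind the mutant peaks, so both share libraries and the shares by peak number are a description. Of 12948 tested genes with a mutant peak, 6302 (48.7%) rose and 2292 (17.7%) fell in mutant input by limma at an adjusted p under 0.05, close to 48.3% and 19.1% of all genes tested. Of the 2623 genes without a mutant peak 46.7% were higher and 26.2% lower. The share called lower was 18.1% at 1 peak, 18% at 2, 16.8% at 3 and 13.7% at 4 or more, and these shares were not tested against each other. Over all 15571 genes the log2 change had a median of 0.25, and the counts depended on the scaling. On rescaled libraries 30.1% of genes with a peak were higher and 32.1% lower, and of those without 34.5% and 32.7%. Which scaling comes closer to the RNA of the fruit was not tested. Genes with peaks only in the 5′ UTR numbered 447, with 57.3% higher and 19.9% lower (43.4% and 28.6% after rescaling). A linoleate 13S-lipoxygenase gene (FvH4_3g43530), of fatty acid oxidation, was listed at 0 FPKM in all WT libraries and stood at 2.04, 1.89 and 2.45 FPKM in the mutant. It has a 3′ UTR peak with 3.5 and an exonic peak with 1.1 in the mutant list, and none of them overlaps a WT peak. The part of the WT level of 0 FPKM in the absence of WT peaks was not tested.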

How the data were processed

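Per the labels' protocols, mRNA of fruit was fragmented and precipitated with an anti-m6A antibody, and IP and input were sequenced as pairs of 150-base reads. FastQC, HISAT2 and StringTie appear in the submitters' processing notes, with neither version nor purpose. Build, annotation and peak caller: not given in the sources used here. Per the file headers, the authors deposited FPKM per gene and input library, and for each genotype 1 list of peaks with a log2 ratio of IP over input, p-values rounded to 2 decimals and a span. Adjusted p is listed as 0 for 98.7% of mutant peaks, so p ranks nothing. Low FPKM did not fall on whole-read steps, so depth is unknown and no count model was used. Peak starts count from 0 and were raised by 1.

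Input RNA was tested in R 4.3.3 with limma 3.58.1, after log2(FPKM + 1), in the 15571 genes whose 6 inputs averaged 1 FPKM or more. The model held genotype alone, with limma's trended prior and Benjamini-Hochberg adjustment; this scale understates changes of low genes, and the step was tested on simulated data. The replicates are biological per the series' design. Alternatives (other minimums, scalings, overlaps, the replicate block, each library left out) are in the closing section. Intervals cover counting of genes only. Near-identical gene copies may share reads, so levels of members of large families are uncertain.

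Members and gene groups (word patterns on gene descriptions, 16 lists and 2 marker lists) were chosen with earlier results of these data known; the m6A machinery and ethylene patterns were narrowed after their matches were seen. Genes were named by rule: per class the 6 highest peaks at 5 FPKM or more, the 6 genes with most peaks, the 6 longest peaks, the 10 highest inputs, the 8 highest without a peak, and per group the 2 highest peaks and the highest input without one; the text gives a selection. Peak sequences were not analysed here, since no genome was used.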

Additional observations from a re-analysis of the deposited data

How the results depend on the processing

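The 3′ UTR share of 54.7% became 57.3% with peaks of at least 2-fold, 73.2% with the highest peak of each gene, and 30.9% and 60.9% in peaks without and with a WT overlap. The median enrichment of 3′ UTR over exonic peaks, 1.56 log2 units, was 1.68 in genes of at least 5 FPKM, 1.46 in genes with 1 peak, and 1.34 as a difference of means. Genes with 2 or more peaks, 45.7%, became 42.7% at 2-fold and 48.3% at 5 FPKM; the median span of 450 became 475 bases at 2-fold. The share of expressed genes with a peak, 83.8%, was 74.2% from 0.1 FPKM, 86.7% from 5 FPKM, 66.2% without a minimum, 82.7% at 2-fold, and 91.1% in genes over 2000 bases (chosen after seeing the data); without 1 mutant input it was 83.7% to 83.8%. The rho of 0.0839 between level and enrichment was 0.106 for the mean of a gene's peaks, 0.0378 for the 3′ UTR, 0.0381 without a minimum and 0.00451 from 5 FPKM, Pearson's r was 0.0522, and without 1 library rho was 0.081 to 0.0852. WT overlap, 79.3%, was 66.3% at 50% of both peaks and 77.8% at 2-fold; overlap with higher differential peaks, 16.8%, was 2.65% at 2-fold and 14.9% at 50%.

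Genes with a peak called higher and lower numbered 6302 and 2292, and 3896 and 4153 with libraries rescaled to the same median, 4042 and 3781 with quantile normalization. Without 1 library they were 5867 to 5970 and 2133 to 2211. Deviations of same-numbered libraries were hardly correlated across genes (r of 0.0351, -0.0313 and 0.0287). Mutant libraries 1 and 3 correlated best with their own number in WT, and mutant library 2 with WT library 1. A pairing by number was therefore not shown. With the replicate block the counts were 6224 and 2264, and the block changed no call of the 39 genes checked. Of these, 28 kept their call in 11 settings. A change of sign was counted only where a call was made. Among the 28, FvH4_5g11050 (MT-A70-like), not called, went from 0.09 to -0.17 on rescaled libraries. Besides the genes given above, FvH4_1g22240 (methyltransferase-like protein 1), higher by 0.22, turned to -0.05 after rescaling, and ALKBH5 (FvH4_1g11920), higher by 0.23, to -0.04; FvH4_7g13500 (-0.04), FvH4_4g24420 (-0.15), FvH4_7g33460 (-0.26) and, with quantile normalization, FvH4_5g18321 (0) are described in the text. The cause was not tested. Summed block lengths could not be tried, since the lists give no blocks.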
